A study of Mus musculus with 9 samples.

Results

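The genes described here are 29 markers of GABAergic neurons and of the ganglionic eminences, the swellings of the ventral forebrain where most forebrain inhibitory neurons are born. They were chosen by symbol from the embryonic count table, which holds 56748 genes. Its 3 groups of brain samples at embryonic day 14 were compared. Of the 29 genes, 29 were found and 29 passed the low-count filter, among 17171 tested genes in all. The groups were 3 libraries exposed to valproic acid, 3 exposed to poly(I:C) and 3 controls given saline. Valproic acid is an anticonvulsant that inhibits histone deacetylases, and poly(I:C) is a synthetic double-stranded RNA that triggers antiviral immunity. Prenatal exposure to each serves as a mouse model of autism spectrum disorder. The unexposed mice are described as wildtype, and the labels give no strain, dose, day of exposure, litter or sex. Separate embryos or litters are not stated for the libraries of a group, so the spread behind each p-value is that between these libraries and may be partly technical.

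GABA is made from glutamate by the glutamic acid decarboxylases Gad1 and Gad2 and is loaded into vesicles by the transporter Slc32a1. In the embryonic forebrain the homeobox factors Gsx1 and Gsx2 act in progenitors of the eminences and Dlx genes in their committed progeny. The medial eminence, specified by Nkx2-1, gives rise to cortical interneurons that use Lhx6, the lateral eminence to striatal projection neurons and olfactory bulb interneurons, and the caudal eminence to interneurons that use Nr2f2 and Prox1. Many of these genes also act outside the eminences, so in brain tissue a level can sum several regions. Meis2, Ebf1, Isl1, Nr2f2 and Prox1 are used in diencephalon, midbrain or hindbrain as well. Of 20 listed GABAergic factors of those regions, 15 passed the low-count filter, and En1, En2, Pax8, Ptf1a and Slc6a5 did not. The part of each region in these libraries was not tested. In bulk tissue, fewer cells of a type and less RNA per cell cannot be told apart.

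Totals were 15399974 to 19883131 counts per library, with a biological coefficient of variation of 7.44%. Neuronal and progenitor markers were abundant: the 8 pan-neuronal markers summed to 5850 to 6220 CPM (counts scaled to library size) under valproic acid, 6230 to 6470 CPM under poly(I:C) and 6270 to 6370 CPM in control. The 8 radial glia markers summed to 2030 to 2110, 1920 to 1990 and 1870 to 1910 CPM in the same order of groups. Of 10 skin, muscle, cartilage and liver markers, 2 reached a mean of 1 CPM. Xist, the RNA of the inactive X chromosome, reached 979 to 1050 CPM in all valproic acid replicates plus replicate 3 of poly(I:C), and at most 0.236 CPM in the others. Summed Y-linked transcripts were at 196 to 201 CPM in poly(I:C) replicates 1 and 2 and control replicates 1 and 2 and at 0 elsewhere. Control replicate 3 had neither signal, and sex and valproic acid cannot be told apart in these libraries. As a covariate, Y-linked expression places control replicate 3 with the libraries that have Xist, and Xist places it with those that have Y-linked transcripts. Within groups, Xist differed widely only in poly(I:C) replicate 3, so values and calls fitted with Xist rest largely on that library. Such fits do not separate sex from valproic acid.

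The 29 genes lay on 13 chromosomes, with 8 on chromosome 2 (Gad1, Gad2, Slc32a1, Dlx1, Dlx2, Lhx6, Sp9 and Meis2) and 5 on chromosome 6 (Dlx5, Dlx6, Dlx6os1, Npy and Tac1). Dlx genes sit in pairs, Dlx1 with Dlx2 and Dlx5 with Dlx6, and the noncoding RNA Dlx6os1 is transcribed from the Dlx5 and Dlx6 locus. To show what their start regions hold, RefSeq promoter windows of 300 bases (250 before to 50 after a transcript start, GRCm38.p6) were searched for TAATTA, a core that Dlx and many other homeodomain proteins bind. TAATTA reads the same on both strands and was the single motif searched. Windows existed for 25 of the genes, 32 windows in all, and 4 windows of the 3 genes Dlx6os1, Sp8 and Tac1 held it (12.5% of windows), against 5.29% of all 32851 windows. The 32 windows of these 25 genes held a median of 17 CpG dinucleotides, against 7 in all windows. One window of each of the 3 genes with a match is shown, 5′ to 3′ on the gene's strand, with TAATTA in capitals. They are chr6:6869484-6869783 on the minus strand for Dlx6os1, chr12:118847309-118847608 on the plus strand for Sp8, and chr6:7554811-7555110 on the plus strand for Tac1.
Dlx6os1: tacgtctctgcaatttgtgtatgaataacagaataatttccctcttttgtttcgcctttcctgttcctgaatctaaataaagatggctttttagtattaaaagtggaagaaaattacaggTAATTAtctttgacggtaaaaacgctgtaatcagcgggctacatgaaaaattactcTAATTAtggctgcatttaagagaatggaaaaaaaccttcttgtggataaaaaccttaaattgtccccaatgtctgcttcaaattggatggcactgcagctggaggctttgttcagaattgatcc
Sp8: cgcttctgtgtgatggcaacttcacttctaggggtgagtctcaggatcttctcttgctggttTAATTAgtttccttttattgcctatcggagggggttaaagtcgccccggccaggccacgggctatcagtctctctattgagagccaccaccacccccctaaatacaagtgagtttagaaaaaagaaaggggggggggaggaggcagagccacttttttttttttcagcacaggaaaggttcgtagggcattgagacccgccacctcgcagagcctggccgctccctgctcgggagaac
Tac1: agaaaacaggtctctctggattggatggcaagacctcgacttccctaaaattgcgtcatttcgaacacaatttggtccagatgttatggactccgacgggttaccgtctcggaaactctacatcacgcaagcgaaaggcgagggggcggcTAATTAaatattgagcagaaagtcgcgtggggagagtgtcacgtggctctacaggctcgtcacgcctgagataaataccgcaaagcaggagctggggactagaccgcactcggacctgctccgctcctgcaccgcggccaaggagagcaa
The copies begin 130 and 74 bases before the start in Dlx6os1, 188 bases before it in Sp8 and 100 bases before it in Tac1. A match describes these letters and shows no binding, and none of the 3 genes was called in any comparison below.

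Per kilobase of exon, the control levels spanned Sst at 74.8 CPM per kb, the neuropeptide of a medial eminence interneuron class, down to Gsx1 at 1.70 CPM per kb, a factor restricted to progenitors. Dlx2 followed Sst at 36.8 CPM per kb, then Meis2 at 28.9 and Dlx1 at 28.4 CPM per kb, whose control ranges overlapped. Npy and Nkx2-1 (22.5 and 22.3 CPM per kb), Gad2, Dlx6os1, Lhx6, Dlx5, Nr2f2 and Slc32a1 (19.9 down to 17.0 CPM per kb) and Cxcr4, Sp9 and Gad1 (14.7 down to 13.6 CPM per kb) formed a middle range in which nearly all neighbours overlapped. Isl1, Six3, Lhx8, Prox1 and Dlx6 lay between 10.8 and 6.52 CPM per kb, and Sp8, Erbb4, Maf and Ebf1 between 5.98 and 4.17 CPM per kb. Gsx2, Penk, Tac1 and Npas1 stood at 3.64, 3.23, 3.12 and 2.70 CPM per kb.

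**Figure D1:**
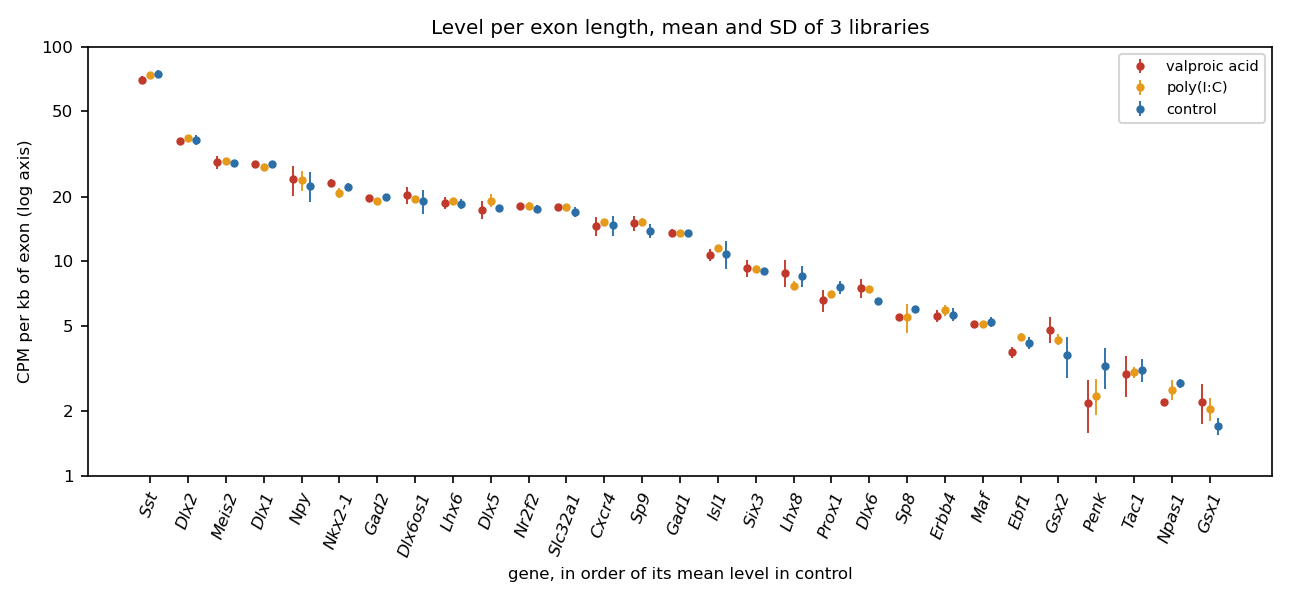
Level of each of the 29 genes in CPM per kb of exon (log axis), mean and SD of 3 libraries for valproic acid, poly(I:C) and control, ordered by the control mean. Sst was highest at 74.8 CPM per kb and Gsx1 lowest at 1.70 CPM per kb in control, and the group means lay farthest apart for low genes such as Penk and Gsx1.

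The libraries were close to each other for most of the genes. The highest library was 1.09 to 2.16 times the lowest over the 9 libraries, with a median of 1.28 times, against 1.33 times over all tested genes. The coefficient of variation within groups had a median of 6.57% (2.88% for Dlx1 to 22.8% for Penk), against 7.96% over all tested genes. The 29 genes were also more abundant (median 49.3 against 20.2 CPM), and genes of like abundance were not compared. Penk, Gsx1, Tac1, Gsx2 and Npy varied most, between 14.4% and 22.8%, and were among the genes with the fewest counts. For Penk, counting error alone would give 11.6%, and its raw counts ran from 44 to 110 per library. The 29 genes together summed to 1860, 1940 and 1880 CPM under valproic acid, 1900, 1920 and 1900 CPM under poly(I:C), and 1830, 1890 and 1940 CPM in control, so the groups overlapped.

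None of the 29 genes was called in any comparison by edgeR's quasi-likelihood test at a Benjamini-Hochberg adjusted p under 0.05. Of all tested genes, 6.35% were called between valproic acid and control, 0.536% between poly(I:C) and control and 2.59% between valproic acid and poly(I:C). At an unadjusted p under 0.05 the edgeR counts were 6 of 29 for valproic acid against control (22.1% of all tested genes), 0 of 29 for poly(I:C) against control (12%) and 2 of 29 for valproic acid against poly(I:C) (16.7%). Of the 6, 2 were higher under valproic acid (Gsx2 and Dlx6; 11.2% of all tested genes) and 4 lower (Ebf1, Penk, Prox1 and Npas1; 10.9%). Of the other 2, Nkx2-1 was higher under valproic acid than under poly(I:C) (8.21%) and Ebf1 lower (8.45%). DESeq2 called 0 of 29 in each comparison, against 8.65%, 1.08% and 4.54% of the genes to which it gave an adjusted p. The median log2 fold change over the 29 genes was 0.002 for valproic acid against control and 0.035 for poly(I:C) against control, with -0.003 over all tested genes in both. Between valproic acid and poly(I:C) it was -0.01. Fitted values lay above 0 for 15 of 29 genes under valproic acid against control (49.1% of all tested genes), 17 of 29 under poly(I:C) against control (48.9%) and 11 of 29 between valproic acid and poly(I:C) (50%).

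The intervals show which sizes of difference between the groups the spread of these libraries leaves room for. The model holds no term for sex, so in no comparison do they bound the effect of an exposure alone. Sex-linked transcripts were not balanced between poly(I:C) and control either. Of those libraries, poly(I:C) replicate 3 alone had Xist, and control replicate 3 had neither signal. A bound of 1.25-fold either way was chosen after the values were seen. For 20 of 29 genes the whole 95% interval of the fold change between valproic acid and control lay within that bound, against 47.4% of all tested genes. For poly(I:C) against control it did so for 20 of 29 genes (52.2% of all), and between valproic acid and poly(I:C) for 22 of 29 (49.4% of all). The 29 genes were more abundant than the typical tested gene (median 49.3 against 20.2 CPM), and abundance narrows an interval. The widest intervals were those of Penk, Gsx1 and Gsx2.

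**Figure D2:**
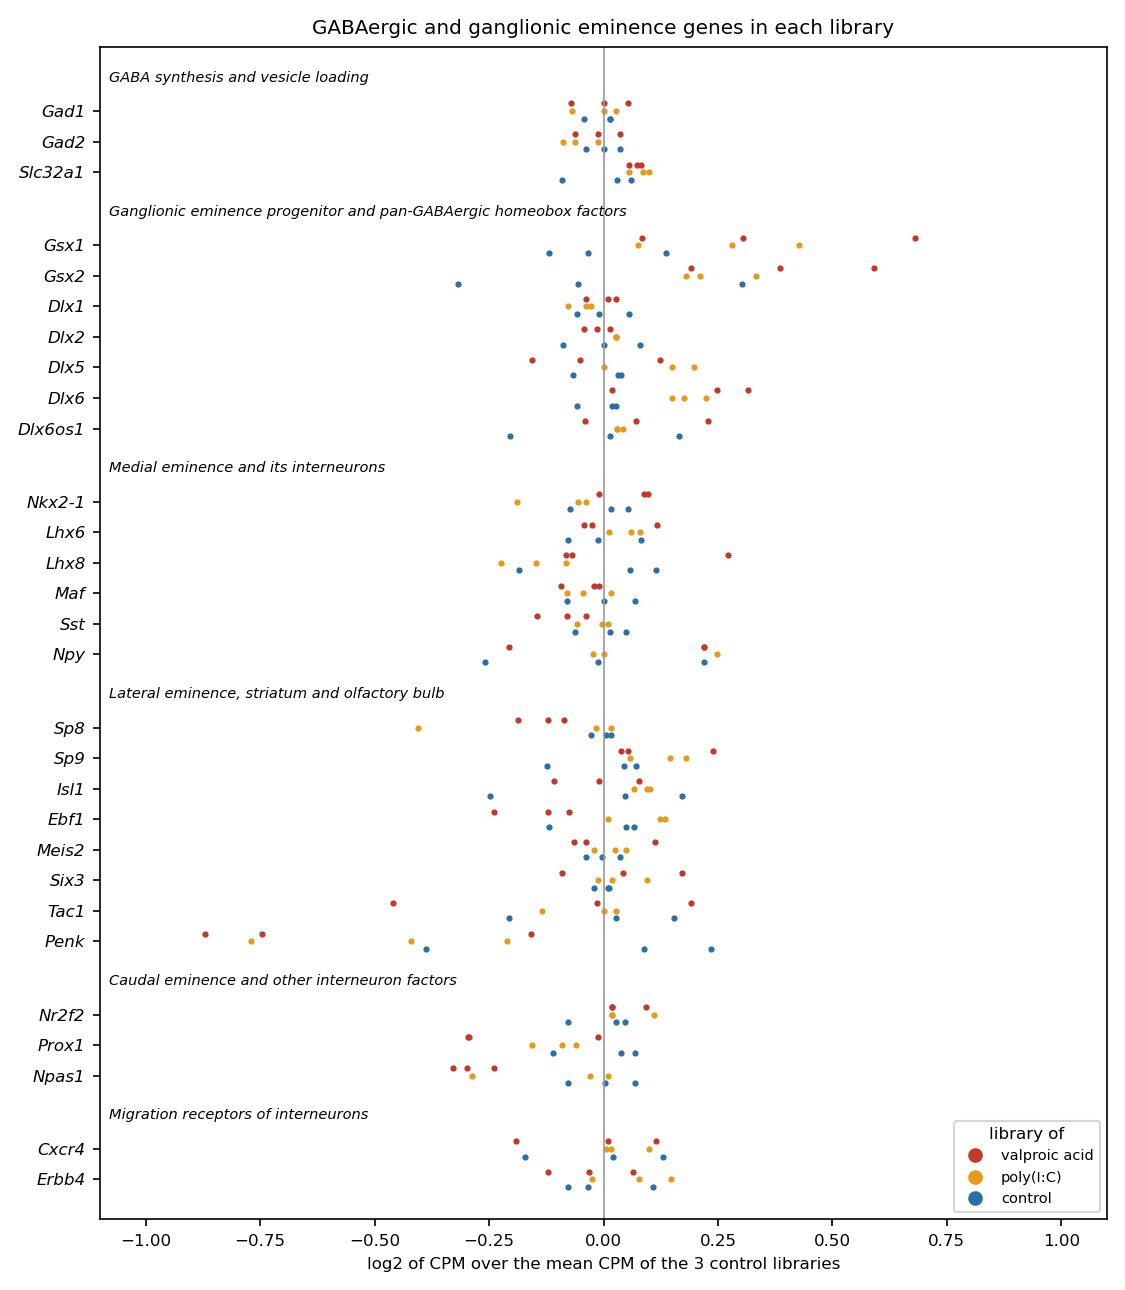
Each point is 1 library, placed by the log2 of its CPM over the mean CPM of the 3 control libraries, for the 29 genes grouped by role. Most points of all 3 groups lie near 0 and overlap, while Gsx1, Gsx2 and Penk, with few counts, spread widest.

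For the machinery that makes and loads GABA the 3 groups overlapped, with narrow intervals. Gad1 was at 104, 99.0 and 108 CPM under valproic acid, 104, 106 and 99.2 CPM under poly(I:C), and 101, 105 and 105 CPM in control. Gad2 was at 112, 116 and 120 CPM under valproic acid, 110, 116 and 112 CPM under poly(I:C), and 114, 117 and 120 CPM in control. Slc32a1 was at 49.5, 50.1 and 50.4 CPM under valproic acid, 50.5, 51.0 and 49.5 CPM under poly(I:C), and 48.6, 49.6 and 44.7 CPM in control. The groups overlapped for all 3 genes, and control replicate 3 was the lowest library for Slc32a1. For valproic acid against control the 95% interval of the fold change was 0.935 to 1.07 for Gad1, 0.929 to 1.05 for Gad2 and 0.972 to 1.14 for Slc32a1. For poly(I:C) against control it was 0.93 to 1.07, 0.902 to 1.02 and 0.979 to 1.14 for the same genes.

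Among the homeobox factors of the eminences, the progenitor genes Gsx2 and Gsx1 gave the largest fitted values against control. Dlx1 and Dlx2 gave some of the smallest. Gsx2, which patterns the lateral eminence, was at 7.93, 9.14 and 6.93 CPM under valproic acid, 6.88, 7.02 and 7.65 CPM under poly(I:C), and 5.84, 7.49 and 4.87 CPM in control. Control replicate 2 lay above valproic acid replicate 3, so the groups overlapped, and the log2 fold change of 0.40 (SE 0.163) for valproic acid against control did not pass edgeR's test (unadjusted p = 0.0256, adjusted p = 0.154). Gsx1, its relative in progenitors, was at 3.73, 3.20 and 4.84 CPM under valproic acid, 4.06, 3.67 and 3.18 CPM under poly(I:C), and 2.95, 3.32 and 2.78 CPM in control (0.37, SE 0.197, edgeR adjusted p = 0.288 for valproic acid). The 95% interval of the fold change under valproic acid ran from 1.04 to 1.69 for Gsx2 and from 0.968 to 1.73 for Gsx1. For poly(I:C) against control the fitted log2 values were 0.25 for Gsx2 and 0.27 for Gsx1 (edgeR adjusted p = 0.601 and 0.634).

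Dlx1 and Dlx2, needed for interneurons to migrate and differentiate, were at 150 to 157 CPM and 102 to 106 CPM under valproic acid, 146 to 151 and 107 CPM under poly(I:C), and 148 to 160 and 98.8 to 111 CPM in control. Their 95% intervals for valproic acid against control were 0.944 to 1.06-fold and 0.925 to 1.06-fold. Dlx5 was at 38.7, 36.0 and 43.7 CPM under valproic acid, 44.5, 46.0 and 40.1 CPM under poly(I:C), and 38.3, 41.0 and 41.2 CPM in control. Dlx6, its partner at the same locus, was at 15.7, 19.3 and 18.4 CPM under valproic acid, 17.2, 17.5 and 18.1 CPM under poly(I:C), and 15.7, 15.8 and 14.9 CPM in control. All 3 poly(I:C) libraries lay above all controls for Dlx6, the single gene of the 29 whose poly(I:C) and control libraries did not overlap (18.4% of all tested genes did not, 9.61% with poly(I:C) higher). The fitted change of Dlx6 was 0.19 (SE 0.0907, edgeR adjusted p = 0.444) for poly(I:C) and 0.20 (SE 0.0911, edgeR adjusted p = 0.209) for valproic acid, both against the same controls. Dlx6os1, which modulates the neighbouring Dlx genes, was at 104, 116 and 96.3 CPM under valproic acid, 102, 101 and 101 CPM under poly(I:C), and 100, 85.9 and 111 CPM in control. The strand setting of the counting is not known, and annotated exons of Dlx1as (26.0 CPM) share 335 bases with those of Dlx1, so reads there may belong to either. The same limit holds for 270 bases of Sp9 shared with Cir1 (21.9 CPM), 106 bases of Six3 shared with Six3os1 (41.8 CPM) and 643 bases of Nr2f2 shared with B130024G19Rik (4.5 CPM), all on the opposite strand.

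No gene of the medial eminence set was called. Nkx2-1, the factor that specifies this domain and part of the hypothalamus, was at 67.4, 67.8 and 63.0 CPM under valproic acid, 61.7, 55.6 and 61.0 CPM under poly(I:C), and 60.3, 64.1 and 65.8 CPM in control. All valproic acid libraries lay above all poly(I:C) libraries (log2 fold change 0.15, SE 0.0565), but the difference did not pass (unadjusted p = 0.0168, edgeR adjusted p = 0.18). Against control, valproic acid gave 0.06 and poly(I:C) -0.09, with overlapping libraries. Lhx6, which guides the differentiation of these interneurons, was at 87.1, 96.2 and 86.1 CPM under valproic acid, 89.4, 93.8 and 92.4 CPM under poly(I:C), and 88.0, 93.9 and 84.1 CPM in control. Lhx8, a factor of cholinergic and other medial eminence neurons, was at 20.6, 26.1 and 20.4 CPM under valproic acid, 18.5, 19.5 and 20.4 CPM under poly(I:C), and 22.5, 19.0 and 23.4 CPM in control. Valproic acid replicate 2 was its highest library. Maf, a factor of these interneurons and of other cells, ranged from 40.3 to 42.7 CPM under valproic acid, 40.7 to 43.5 CPM under poly(I:C) and 40.7 to 45.1 CPM in control.

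The peptides Sst and Npy, made by medial eminence interneurons and by other neurons, also overlapped. Sst was at 52.5, 48.7 and 51.0 CPM under valproic acid, 54.3, 53.8 and 51.8 CPM under poly(I:C), and 51.6, 54.4 and 55.8 CPM in control. Its 95% interval was 0.87 to 1.02-fold for valproic acid and 0.915 to 1.07-fold for poly(I:C), both against control. Npy was at 14.9, 11.1 and 14.9 CPM under valproic acid, 15.2, 12.8 and 12.6 CPM under poly(I:C), and 10.7, 14.9 and 12.7 CPM in control, with intervals of 0.867 to 1.31-fold and 0.864 to 1.3-fold.

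Of the lateral eminence, striatal and olfactory bulb genes, Ebf1 came nearest to the threshold and Penk had the largest fitted value. Ebf1, a factor of striatal projection neurons that is also used in other brain regions and in blood vessels, was at 34.5, 37.4 and 38.6 CPM under valproic acid, 44.7, 44.3 and 41.0 CPM under poly(I:C), and 42.6, 37.5 and 42.1 CPM in control. All valproic acid libraries lay below all poly(I:C) libraries for Ebf1, while the poly(I:C) and control libraries overlapped. Ebf1, Dlx2 (lower) and Nkx2-1 (higher) were the 3 of 29 genes whose valproic acid and poly(I:C) libraries did not overlap, against 21.9% of all tested genes (10.5% higher and 11.4% lower). The difference between valproic acid and poly(I:C) was -0.24 on the log2 scale (SE 0.0667, unadjusted p = 0.00302) and did not pass after adjustment (edgeR adjusted p = 0.0787). With no filter on low counts edgeR gave it an adjusted p of 0.0318. Against control, the value for valproic acid was -0.15 (edgeR adjusted p = 0.213) and for poly(I:C) 0.09 (edgeR adjusted p = 0.636). Markers of mural cells and fibroblasts, among the other cells that can use Ebf1, summed to 529 to 640 CPM under valproic acid, 473 to 504 CPM under poly(I:C) and 535 to 582 CPM in control. Their part in the value of Ebf1 was not tested.

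Penk, which encodes the precursor of the enkephalin peptides, was at 4.72, 3.14 and 2.88 CPM under valproic acid, 3.09, 4.55 and 3.94 CPM under poly(I:C), and 5.60, 6.20 and 4.03 CPM in control. Valproic acid replicate 1 lay above control replicate 3. The log2 fold change of Penk was -0.55 (SE 0.227, edgeR adjusted p = 0.167) for valproic acid and -0.45 (SE 0.223, edgeR adjusted p = 0.456) for poly(I:C), both against the same controls. Its interval for valproic acid ran from 0.489 to 0.957-fold without adjustment for the number of genes tested. Tac1, the precursor of substance P, was at 12.1, 10.5 and 7.71 CPM under valproic acid, 10.8, 9.65 and 10.6 CPM under poly(I:C), and 10.8, 9.18 and 11.8 CPM in control.

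Sp8 and Sp9 are zinc finger factors of the lateral eminence and its olfactory bulb and striatal offspring. Sp8 was at 25.1, 25.7 and 24.0 CPM under valproic acid, 27.6, 27.0 and 20.6 CPM under poly(I:C), and 27.6, 27.4 and 26.8 CPM in control. All valproic acid libraries lay below all controls, with a fitted log2 value of -0.13 (SE 0.0948, edgeR adjusted p = 0.471), and poly(I:C) replicate 3 was the lowest library of all. With Y-linked expression or Xist as a covariate the Sp8 value was 0.01 or 0.28, on the other side of 0. The value with Xist rests largely on poly(I:C) replicate 3, the only library unlike its group in Xist. Neither value tells sex from valproic acid. Sp9 was at 82.8, 72.9 and 72.1 CPM under valproic acid, 73.1, 77.6 and 79.5 CPM under poly(I:C), and 64.4, 72.4 and 73.7 CPM in control, so its groups overlapped. Isl1, a factor of striatal and of motor and sensory neurons, was at 39.8 to 45.3 CPM under valproic acid, 44.9 to 46.0 CPM under poly(I:C) and 36.1 to 48.3 CPM in control. Meis2, a factor of striatal precursors with the highest CPM of the 29 genes, was at 333, 376 and 339 CPM under valproic acid, 343, 354 and 360 CPM under poly(I:C), and 339, 347 and 357 CPM in control. Six3, a forebrain and striatal factor, ranged from 45.9 to 55.1 CPM under valproic acid, 48.5 to 52.2 CPM under poly(I:C) and 48.2 to 49.3 CPM in control. For valproic acid against control the 95% intervals were 0.94 to 1.07-fold for Meis2 and 0.939 to 1.13-fold for Six3.

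Of the caudal eminence and other interneuron factors, Prox1 and Npas1 had lower means under valproic acid without passing the test. Prox1, a factor of caudal eminence interneurons that also acts in hippocampus, thalamus and lymphatic vessels, was at 51.6, 62.9 and 51.7 CPM under valproic acid, 60.8, 56.9 and 59.5 CPM under poly(I:C), and 58.7, 65.1 and 66.5 CPM in control. Valproic acid replicate 2 lay inside the control range and the other two below it. The log2 fold change for valproic acid against control was -0.20 (SE 0.0742, edgeR adjusted p = 0.132). Without valproic acid replicate 2 it was -0.30 and called (edgeR adjusted p = 0.0185), and it was also called with no filter on low counts at a value of -0.20. In the alternatives, Prox1 ranged from -0.30 to -0.15. Npas1, a repressor in interneuron precursors and pallidal neurons, was at 6.88, 6.46 and 6.60 CPM under valproic acid, 8.18, 7.95 and 6.65 CPM under poly(I:C), and 8.14, 8.51 and 7.70 CPM in control. All valproic acid libraries lay below all controls for Npas1 (log2 fold change -0.29, SE 0.126, edgeR adjusted p = 0.194), and with Xist as a covariate the value was -0.01. That value rests largely on poly(I:C) replicate 3, at 6.65 CPM, and does not tell sex from valproic acid. Npas1 and Sp8 were the 2 of 29 genes whose valproic acid and control libraries did not overlap, against 25.6% of all tested genes, 13.0% with valproic acid lower and 12.6% with it higher. Nr2f2, the orphan nuclear receptor that marks the caudal eminence, was at 154, 154 and 162 CPM under valproic acid, 154, 164 and 154 CPM under poly(I:C), and 144, 155 and 157 CPM in control.

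The receptors that guide migrating interneurons overlapped as well. Cxcr4, the receptor for the chemokine Cxcl12, was at 23.4, 28.9 and 26.9 CPM under valproic acid, 27.0, 28.6 and 26.8 CPM under poly(I:C), and 23.7, 27.1 and 29.2 CPM in control. Erbb4, the neuregulin receptor, was at 64.1, 72.9 and 68.2 CPM under valproic acid, 77.2, 68.5 and 73.5 CPM under poly(I:C), and 66.0, 68.1 and 75.1 CPM in control. Cxcr4 is also made by endothelial and immune cells, whose marker sums were 336 to 366 and 78.0 to 93.9 CPM under valproic acid, 317 to 339 and 85.7 to 91.9 CPM under poly(I:C), and 335 to 348 and 97.3 to 103 CPM in control for endothelium and microglia. Their part in the level of Cxcr4 was not tested.

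**Figure D3:**
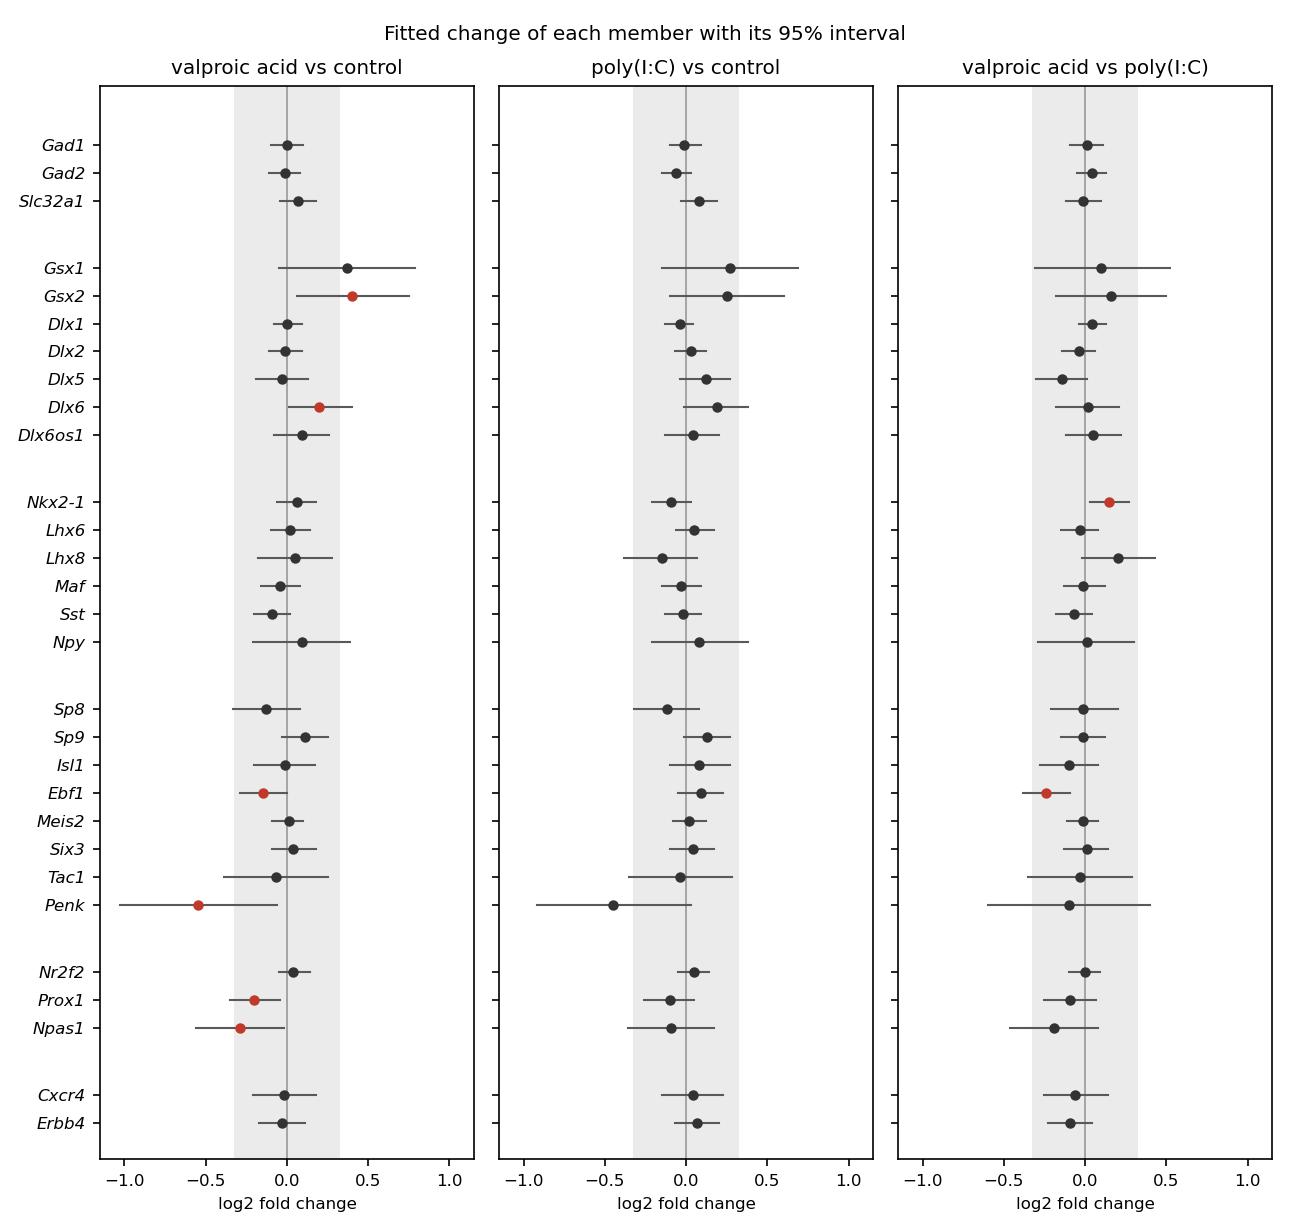
Fitted log2 fold change of each gene with its 95% interval from edgeR, in panels for valproic acid against control, poly(I:C) against control and valproic acid against poly(I:C). The grey band is 1.25-fold either way, red points have an unadjusted p under 0.05, and none passed adjustment. The intervals of Gad1, Gad2, Dlx1, Dlx2 and Meis2 are narrow around 0 and that of Penk is the widest.

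Other genes of the same neurons were read from lists not used to choose the 29 genes. Of 26 other ganglionic eminence and striatal factors, 1 rose and 2 fell under valproic acid against control. Of all tested genes, 3.57% rose and 2.78% fell. Lmo3, a transcriptional cofactor, fell to 100 ± 3.07 CPM under valproic acid, against 124 ± 4.25 CPM in control (mean ± SD, n = 3 each; edgeR adjusted p = 0.00442), a call that held whichever library was left out and was lost with Y-linked expression (0.0637) or Xist (0.585) as a covariate. Ikzf1, a zinc finger factor of striatal neurons and blood cells, fell to 4.73 ± 0.338 CPM, against 6.60 ± 0.0978 CPM in control, a call lost without any 1 of the 6 libraries and under both sex covariates (edgeR adjusted p = 0.138 for the Y-linked one and 0.491 for Xist). Of 10 erythroid markers 4 rose and 0 fell under valproic acid, with summed levels of 2250 to 2620 CPM, against 1790 to 2090 CPM in control. Of 8 microglia markers 2 fell and 0 rose, with sums of 78.0 to 93.9 CPM under valproic acid, against 97.3 to 103 CPM in control, and the part of either cell type in the Ikzf1 value was not tested. Of 29 tested interneuron and striatal neuron genes, 1 rose under valproic acid: Crabp1, a retinoic acid binding protein, at 13.6 ± 0.232 CPM, against 10.4 ± 0.492 CPM in control (edgeR adjusted p = 0.0434), a call also lost without any 1 of these libraries and with Xist in the model (edgeR adjusted p = 0.243). Under poly(I:C) no factor of the first list was called, beside 0.262% of all tested genes that rose and 0.274% that fell against control. In the other, Kcnmb2, a potassium channel subunit, fell to 2.24 ± 0.158 CPM, against 4.46 ± 0.453 CPM in control (edgeR adjusted p = 0.0318). That call held without control replicate 2 and was lost without any other library of the 2 groups (highest edgeR adjusted p 0.146) and with Xist in the model (0.109). Between valproic acid and poly(I:C), where 1.42% of all tested genes were called higher and 1.18% lower, Lmo3 was lower (log2 fold change -0.26, edgeR adjusted p = 0.02) and Kcnmb2 higher (1.07, edgeR adjusted p = 0.00986). The Lmo3 call was lost when poly(I:C) replicate 1 or 2 or valproic acid replicate 3 was left out, and the Kcnmb2 call held in each such fit. Neither was called once Y-linked expression (edgeR adjusted p = 0.215 for Lmo3 and 0.0863 for Kcnmb2) or Xist (0.424 and 0.232) was added to the model, nor in the libraries with Xist alone.

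Genes that receive, carry or break down GABA and glycine were read next to those that mark the cells making GABA, with no test between the lists. Of 26 tested genes of this list, 12 fell under valproic acid against control and 0 rose, beside 2.78% and 3.57% of all tested genes. The median log2 fold change of the list was -0.21, against -0.003 over all tested genes. Gabbr2, a subunit of the metabotropic GABA-B receptor, fell to 29.3 ± 1.72 CPM under valproic acid, against 42.4 ± 3.04 CPM in control (log2 fold change -0.54, SE 0.076, edgeR adjusted p = 0.00124). Slc12a2, the cotransporter that loads immature neurons with chloride, fell to 120 ± 5.54 CPM, against 141 ± 5.46 CPM in control (edgeR adjusted p = 0.00886). The calls of Gabbr2 and Slc12a2 held whichever of the 6 libraries was left out. With a Y-linked covariate the edgeR adjusted p was 0.0173 for Gabbr2 and 0.0597 for Slc12a2, and adding Xist left neither called. Others among the 12, named after their values were seen, were Glrb, Aldh5a1, Slc6a11, Gabra3, Abat, Glra2, Gabbr1 and Gphn.

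In place of 12, edgeR called 5 lower when control replicate 1 or valproic acid replicate 1 was left out, 6 without valproic acid replicate 3 and 7 without control replicate 2. It called 8 without valproic acid replicate 2, 8 with a replicate block, 3 once Y-linked expression was added to the model and 0 once Xist was. Pan-neuronal marker sums were also lower under valproic acid (5850 to 6220 CPM, against 6270 to 6370 CPM in control), and their part in this count was not tested. Under poly(I:C), Slc12a2 alone of this list was called, at 105 ± 1.82 CPM, against 141 ± 5.46 CPM in control (log2 fold change -0.43, SE 0.0452, edgeR adjusted p = 2.51e-04). In that comparison 0.274% of all tested genes were called lower and 0.262% higher. Between valproic acid and poly(I:C), 2 genes of the list were called lower and 1 higher, beside 1.18% and 1.42% of all tested genes. Gabbr2 (-0.40) was lower and Slc12a2 (0.20) higher (edgeR adjusted p = 0.0159 and 0.0349). The Gabbr2 call was lost without poly(I:C) replicate 2 or 3 or valproic acid replicate 1. The Slc12a2 call held only without valproic acid replicate 3 among the fits that left out 1 of these libraries. No gene of the list was called between valproic acid and poly(I:C) with either sex covariate or in the libraries with Xist alone.

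**Figure D4:**
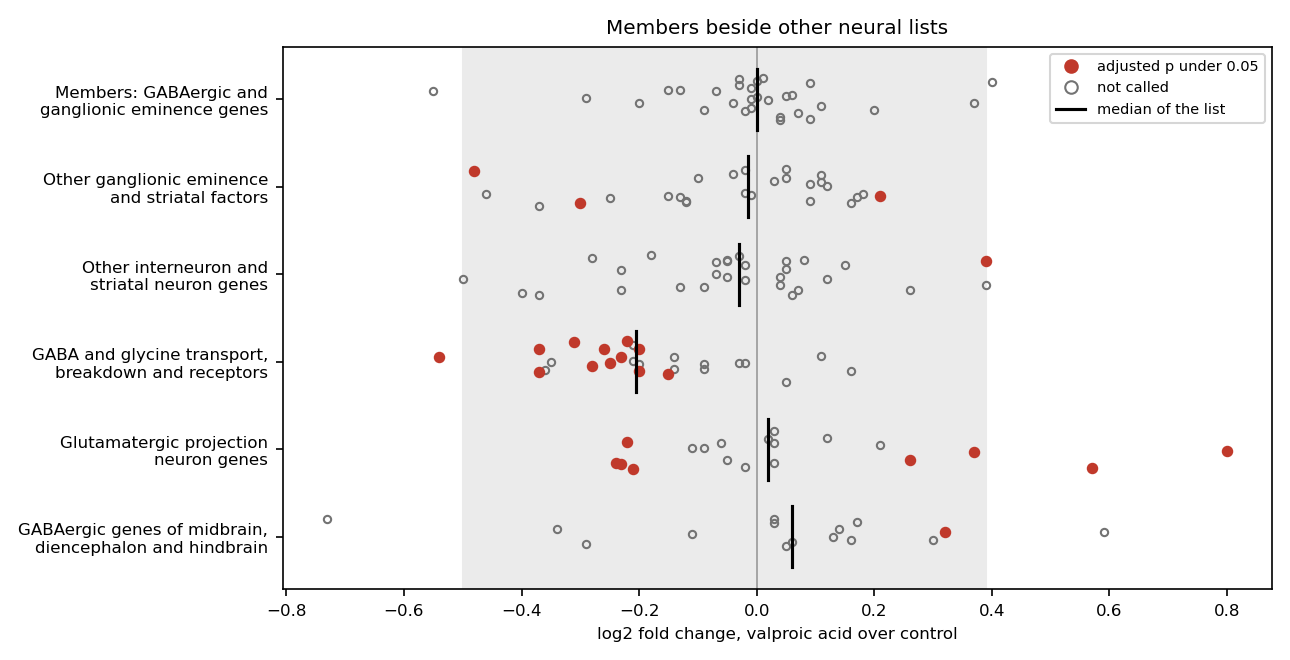
Log2 fold change of each tested gene, valproic acid over control, for the 29 genes and 5 other lists. Filled red points have an edgeR adjusted p under 0.05, black bars are list medians, and the grey band spans the 5th to 95th percentile of all tested genes (-0.50 to 0.39). No point among the 29 genes is filled, while 12 of 26 GABA and glycine transport, breakdown and receptor genes are filled and all of them lie below 0.

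In the glutamatergic lineage, set beside the GABAergic genes for contrast, 4 of 19 genes rose and 4 fell under valproic acid against control (2 rose and 0 fell once Y-linked expression was added to the model, 1 and 0 once Xist was). In that comparison 3.57% of all tested genes rose and 2.78% fell. Of 8 radial glia markers 3 rose and 0 fell in the same comparison, with the sums given above, and of 8 pan-neuronal markers 2 fell and 0 rose. Their part in the values of this list was not tested. Neurog2, the proneural factor of cortical excitatory neurons, rose to 216 ± 6.89 CPM, against 145 ± 5.60 CPM in control, and Eomes, a marker of intermediate progenitors, to 192 ± 10.8 CPM, against 149 ± 4.45 CPM (edgeR adjusted p = 7.72e-06 and 4.53e-04). Nfix and Tle4, factors of maturing cortical neurons, fell by 0.24 and 0.22 on the log2 scale (edgeR adjusted p = 0.0101 and 0.0126), the call of Tle4 being lost without control replicate 3. Under poly(I:C) Neurog2 rose to 176 ± 6.66 CPM, against 145 ± 5.60 CPM in control (edgeR adjusted p = 0.00614). It was the 1 gene of this list called there, beside 0.262% of all tested genes that rose. The call held whichever library was left out (highest edgeR adjusted p 0.046). With the Y-linked or Xist covariate its edgeR adjusted p was 0.0056 or 0.0473. In the libraries with Y-linked transcripts alone, 0 genes of this list were called between poly(I:C) and control. Between valproic acid and poly(I:C), 3 rose and 2 fell, beside 1.42% and 1.18% of all tested genes. Eomes (0.38), Neurog2 (0.29) and Neurog1 (0.72) were higher and Tle4 (-0.21) lower among the named ones. With the Y-linked covariate 2 were called higher and 0 lower, with Xist 1 higher and 0 lower (edgeR adjusted p = 0.0356 for Eomes and 0.193 for Neurog2), and in the libraries with Xist alone 0 were called. The call of Neurog1 was lost without any 1 library, and that of Tle4 without poly(I:C) replicate 2 or 3 or valproic acid replicate 2 or 3. Of 15 tested GABAergic factors of diencephalon, midbrain and hindbrain, Otp, a hypothalamic factor, rose under valproic acid to 28.0 ± 1.39 CPM, against 22.4 ± 1.21 CPM in control (edgeR adjusted p = 0.0199), a call lost when replicate 1 or 2 of control or replicate 1 of valproic acid was left out and with either sex covariate (edgeR adjusted p = 0.114 and 0.38), and none was called in the other comparisons.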

How the data were processed

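The authors deposited raw read counts for each Ensembl gene, used as deposited. Per the labels' protocols, ribosomal RNA was removed from total RNA before NEB Next Ultra library construction. The submitters' processing notes name HISAT2 and the builds GRCm39 and mm39, while the sources used here do not give the counting tool, its strand setting or the annotation. Symbols, chromosomes and exon lengths came from GENCODE release M21 (GRCm38), which named 52125 of 56748 genes. No library was a copy: chi-square values over genes were 3.73 to 6.01 times their degrees of freedom between libraries of a group.

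In edgeR 4.0.16 (R 4.3.3), genes passing filterByExpr (min.count 10, min.total.count 15) were fitted over all 9 libraries with TMM factors (0.9775 to 1.018), a mean per group and two-sided quasi-likelihood F-tests. Adjusted p-values are Benjamini-Hochberg over the 17171 tested genes. Standard errors are the absolute log2 fold change over the root of F. CPM are counts scaled to the TMM-adjusted library size. The method was tested on simulated data. The genes and lists were chosen with earlier results of these data known. All 29 genes are described, and of each other list up to 4 called genes with the smallest adjusted p per comparison are named, some of which are not reported here. DESeq2 1.42.0 and the other alternatives are in the closing section. Same-numbered libraries did not deviate together in every pair (correlations of -0.042 to 0.131), and nothing in the labels pairs them, so replicate numbers were not treated as pairs.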

Additional observations from a re-analysis of the deposited data

How the results depend on the processing

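Of 87 values (29 genes in 3 comparisons), 85 were called under no alternative. The exceptions were Prox1, valproic acid against control, and Ebf1, valproic acid against poly(I:C). With no filter on low counts 1 gene of the 29 was called lower in each of those comparisons. Leaving out a library gave 0 to 1 called lower for valproic acid against control, the 1 being Prox1 without valproic acid replicate 2.

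Over all genes the calls moved more. For valproic acid against control 1090 genes were called, 1661 with no filter, 272 with Y-linked expression and 19 with Xist as a covariate, and 467 to 789 with 1 library left out (467 without control replicate 1, 709 without 2, 605 without 3, 701 without valproic acid replicate 2). For poly(I:C) against control 92 were called, 464 with no filter, 166 by DESeq2, 42 with Xist as a covariate, 60 in the libraries with Y-linked transcripts alone, and 38 to 63 with 1 library left out (38, 60 and 54 without control replicates 1, 2 and 3, 39 and 46 without poly(I:C) replicates 1 and 3). Between valproic acid and poly(I:C) 445 were called, 1057 with no filter, 111 and 39 with the Y-linked and Xist covariates, 37 in the libraries with Xist alone, and 113 to 294 with 1 library left out (263, 294 and 259 without valproic acid replicates 1, 2 and 3, 266, 113 and 181 without poly(I:C) replicates 1, 2 and 3).

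In the other lists together, 25 genes were called for valproic acid against control, 6 and 1 with the Y-linked and Xist covariates, and 13 to 19 with 1 library left out (15 and 16 without valproic acid replicates 1 and 3, 13 without control replicate 1 or 2). For poly(I:C) against control 3 were called, 5 with no filter and 1 in the libraries with Y-linked transcripts. Between valproic acid and poly(I:C) 10 were called, 17 with no filter, 2 and 1 with the covariates, 0 in the libraries with Xist, and 3 to 8 with 1 library left out (5, 6 and 6 without valproic acid replicates 1, 2 and 3, 3 and 4 without poly(I:C) replicates 2 and 3). Counting each called gene picked from these lists under each alternative, the call was lost with its direction kept 47 times and held 148 times for valproic acid against control, 8 and 40 times for poly(I:C) against control, and 50 and 94 times between valproic acid and poly(I:C). The cause of these moves was not tested.

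A replicate block gave 912, 88 and 344 called genes in the same order of comparisons, with 0 of the 29 among them. The fits restricted by sex-linked transcripts were chosen after seeing the data, and that of valproic acid against poly(I:C) leaves 1 poly(I:C) library, assumed to vary like the rest. Counting error is largest for Gsx1, Penk and Gsx2.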
